A study of Mus musculus with 2 samples.

Results

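Described here are 37 genes of the spindle, the kinetochore and cytokinesis, taken by symbol from the 32285 genes of a pair of single-cell RNA libraries. All 37 symbols were found, once each. They comprise 12 mitotic kinesins, 4 chromosomal passenger genes, 5 spindle assembly genes, 4 spindle checkpoint genes, 7 kinetochore genes, 2 genes of mitotic exit and 3 midbody and cytokinesis genes. The libraries come from RM-1 tumours, a mouse prostate cancer line of labelled genotype WT grown under the skin of C57BL/6 mice, after 10 days of RP-6306 or of vehicle. RP-6306 inhibits PKMYT1, a kinase that phosphorylates CDK1 and so holds cells back from mitosis. Each group has 1 library, made from sorted CD45+ cells mixed with tumour cells at 3 to 1, and the design text names 2 mice without tying a mouse to a group. Ages, dose and dosing schedule are not stated in the labels. With 1 library per group there was no test between groups: every interval below covers counting error only, and a difference between the treatments cannot be told apart from a difference between these tumours, dissociations or libraries.

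At mitosis the chromosomes, copied and condensed, are attached through their kinetochores to spindle microtubules. Aurora kinases, PLK1 and the mitotic kinesins build the spindle and correct faulty attachments. The checkpoint keeps the anaphase-promoting complex (APC/C) inactive until all kinetochores are attached, after which CDC20 and UBE2C help mark cyclin B and securin for destruction and the midbody proteins divide the cell. Many of these genes are silent in resting cells and are switched on together in G2 by the MuvB complex with B-MYB and FOXM1, which binds a promoter element called the cell cycle genes homology region (CHR, TTTGAA or the variant TTTAAA), often near CCAAT boxes bound by NF-Y.

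The shared element is visible in the promoters. RefSeq promoters on GRCm38.p6, 250 bases before to 50 bases after the start, were at hand for 32 of the 37 genes. Tpx2, Kif20a, Spc24, Aurkb and Incenp were not matched. TTTGAA, searched on both strands, occurred in 25 of 32 (78.1%), against 18.1% of the promoters of 27025 genes. CCAAT occurred in 22 of 32 (68.8%), against 37.9%, and both elements in 20 of 32 (62.5%), against 7.12%. TTTAAA, which reads the same on both strands, occurred in 9 (28.1%), against 13.2%. A match is letters only and does not show binding.

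The promoters of genes that rose among the first and the last in the tumour cells are shown because they bracket the order described further on. Those of Cdc20, which differed most between the libraries, and Cenpa, which is also described in leukocytes, are shown with them. Each runs 5′ to 3′ on the gene's strand, from 100 bases before to 50 bases after the start. Capitals mark the CHR (TTTGAA, read as TTCAAA where it lies on the other strand). Its variant TTTAAA is in capitals too. Capitals also mark the NF-Y box (CCAAT, which becomes ATTGG where it lies on the other strand). Mad2l1, Kif15, Ttk and Nuf2 are among the first 5 to rise, and Spc24, which rose between Kif15 and Ttk, had no matched promoter.
Mad2l1 (chr6:66535121-66535270, plus strand): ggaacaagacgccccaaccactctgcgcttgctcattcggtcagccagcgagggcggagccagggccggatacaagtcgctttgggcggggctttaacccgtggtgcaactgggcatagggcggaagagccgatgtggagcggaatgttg
Kif15 (chr9:122950981-122951130, plus strand): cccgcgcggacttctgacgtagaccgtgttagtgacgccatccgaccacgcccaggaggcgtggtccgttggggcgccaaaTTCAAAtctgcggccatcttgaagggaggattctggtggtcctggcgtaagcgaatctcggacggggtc
Ttk (chr9:83834589-83834738, plus strand): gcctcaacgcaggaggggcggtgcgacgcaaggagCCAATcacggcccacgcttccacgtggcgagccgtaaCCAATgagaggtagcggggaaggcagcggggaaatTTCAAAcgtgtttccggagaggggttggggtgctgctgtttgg
Nuf2 (chr1:169531415-169531564, minus strand): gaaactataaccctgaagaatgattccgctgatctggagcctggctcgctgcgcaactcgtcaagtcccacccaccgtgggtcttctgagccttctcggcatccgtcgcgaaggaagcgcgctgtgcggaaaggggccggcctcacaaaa
The next 5 are the last to rise, and the final 2 are Cdc20 and Cenpa.
Plk1 (chr7:122159335-122159484, plus strand): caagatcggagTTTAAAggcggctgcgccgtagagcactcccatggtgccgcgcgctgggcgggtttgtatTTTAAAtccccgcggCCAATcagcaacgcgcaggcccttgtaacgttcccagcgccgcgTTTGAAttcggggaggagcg
Cenpe (chr3:135212463-135212612, plus strand): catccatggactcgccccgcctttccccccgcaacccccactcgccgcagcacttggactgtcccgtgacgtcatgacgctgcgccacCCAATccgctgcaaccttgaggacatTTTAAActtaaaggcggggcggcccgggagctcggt
Aurka (chr2:172370521-172370670, minus strand): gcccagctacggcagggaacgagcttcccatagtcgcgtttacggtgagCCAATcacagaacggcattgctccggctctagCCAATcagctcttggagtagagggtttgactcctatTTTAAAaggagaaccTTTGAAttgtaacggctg
Cenpf (chr1:189688037-189688186, minus strand): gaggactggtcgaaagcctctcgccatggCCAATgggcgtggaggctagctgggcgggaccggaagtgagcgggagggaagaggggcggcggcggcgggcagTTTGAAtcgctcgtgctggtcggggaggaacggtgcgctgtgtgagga
Ube2c (chr2:164769829-164769978, plus strand): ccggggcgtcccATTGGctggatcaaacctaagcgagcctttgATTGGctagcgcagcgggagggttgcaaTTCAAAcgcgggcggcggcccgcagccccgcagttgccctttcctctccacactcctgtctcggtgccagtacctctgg
Cdc20 (chr4:118437294-118437443, minus strand): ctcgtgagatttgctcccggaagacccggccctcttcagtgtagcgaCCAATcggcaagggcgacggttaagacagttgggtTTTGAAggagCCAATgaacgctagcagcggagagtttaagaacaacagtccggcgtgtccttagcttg
Cenpa (chr5:30666786-30666935, plus strand): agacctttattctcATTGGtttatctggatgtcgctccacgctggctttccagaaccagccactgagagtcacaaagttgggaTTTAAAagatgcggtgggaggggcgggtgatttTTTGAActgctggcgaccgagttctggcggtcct
Mad2l1 and Nuf2 hold none of the searched letters in these stretches, and Kif15 holds TTCAAA without CCAAT. The starts are those of RefSeq, and some differ from the gene bounds of GENCODE. The Mad2l1 stretch ends at 66535270, before the GENCODE start of the gene at 66535390, so bases around that start were not searched. Ttk holds TTCAAA and a pair of CCAAT. Of the 5 last to rise, Plk1, Aurka, Cenpf and Ube2c hold TTTGAA or its complement with CCAAT or its complement, and Cenpe holds TTTAAA with CCAAT. In Cdc20 the first base of TTTGAA lies 18 bases upstream of the start, between CCAAT boxes that begin 53 and 8 bases upstream. Cenpa holds the CHR, its variant and an NF-Y box on the other strand.

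The matrices hold unique molecular identifiers (UMIs, single captured molecules) per gene and cell barcode. The RP-6306 library had 15909 barcodes and 158073632 UMIs and the vehicle library 17313 barcodes and 135415063 UMIs, and 374 barcodes occurred in both. Cells were clustered without the 37 genes, and classes were named from other markers. Tumour-like cells, 5 clusters, numbered 3163 in the RP-6306 and 2893 in the vehicle library, with medians of 31782 and 26708 UMIs. Their 12 tumour markers summed to 2568 and 2611 UMIs per 1000000 UMIs of the same cells (CPM), with 1 marker at 0 in both, and the leukocyte gene Ptprc lay at 10.1 and 12.1 CPM. Fibroblast markers summed to 197 and 216 CPM and endothelial markers to 48.0 and 33.7 CPM in these cells. Gene bounds from GENCODE on GRCm38 showed 10 of the 37 genes overlapping another measured gene, among them Kif18a with Mettl15, Cdc20 with Elovl1 and Ube2c with Tnnc2, all of them on the opposite strand except Gm48646 within Anln. No source used here says whether counting used strand, so reads of such pairs cannot be told apart.

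In tumour-like cells all 37 genes were higher in the RP-6306 library. Their UMIs summed to 3053 CPM (3042 to 3063) in RP-6306 and 2242 CPM (2231 to 2252) in vehicle tumour-like cells, a log2 ratio of 0.45 (0.44 to 0.45), RP-6306 over vehicle. Ratios here are taken after adding 1 CPM to each level, and a gene is called higher or lower past a log2 ratio of 0.32 in either direction. By that rule 30 of 37 were higher and 0 lower, where 7.09% of 17171 genes with at least 20 UMIs were higher and 7.19% lower. The median log2 ratio was 0.49 over the 37 and 0.02 over all genes. Past 1.5-fold 5 of the 37 were higher, against 1% of all genes. The 7 genes not called were Anln, Ndc80, Ect2, Cenpf, Prc1, Nusap1 and Hmmr.

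Which tumour clusters are counted decides the size of this ratio. Without cluster 5, led by Cp, Id3, Sparc and Clu, the log2 ratio of the sum was 0.14 and 3 of 37 genes were called higher. Without cluster 6, led by Cxcl1 and histone genes, it was 0.88 with 37 of 37 called, and without cluster 7, led by Lgals7, Rrm2, Ube2c and Tpx2, it was 0.33 with 21 called. Without the cells whose barcode occurs in both libraries it was 0.46 with 32 called. These alternatives were chosen after seeing the data.

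Cdc20 and Plk1 had the highest ratios. Cdc20, the APC/C activator that the checkpoint restrains, was at 41.0 CPM (4344 UMIs) in RP-6306 and 24.6 CPM (1966 UMIs) in vehicle tumour-like cells, a log2 ratio of 0.72 (0.66 to 0.82). Plk1, the kinase that drives centrosome maturation and mitotic entry, was at 86.9 and 52.7 CPM, 0.71 (0.67 to 0.77). Ube2c, the ubiquitin-conjugating enzyme of the APC/C, was at 326 and 216 CPM, 0.59 (0.56 to 0.62). The counting intervals of all 3 lie clear of 0. Aurka, the centrosomal Aurora kinase, was at 67.2 and 45.1 CPM (0.57). Its activator Tpx2 was at 229 and 168 CPM (0.44). Hmmr, a spindle pole protein, and Nusap1, which bundles microtubules near chromatin, were at 0.32 and 0.31 on the log2 scale.

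All 12 mitotic kinesins were called higher, with log2 ratios between 0.36 for Kif18a and 0.61 for Kif18b. Kif11, the motor that pushes spindle poles apart, was at 95.6 CPM in RP-6306 and 67.6 CPM in vehicle cells (0.49), and Kif15, which can stand in for it, at 72.2 and 48.3 CPM (0.57). Kif2c, which takes microtubules apart at centromeres, was at 38.2 and 26.9 CPM (0.49). Kif20a and Kif23, motors of the central spindle, were at 46.0 and 31.1 CPM (0.55) and at 50.8 and 34.6 CPM (0.54). The chromokinesins Kif4 and Kif22 were at 0.46 and 0.52, and Kifc1, a minus-end motor that clusters centrosomes, at 0.40. The spread among the kinesins is thus narrow beside that of the kinetochore genes.

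The chromosomal passengers lay close together: Aurkb, the kinase that destabilises faulty attachments, at 48.9 CPM in RP-6306 and 34.5 CPM in vehicle cells (0.49), its scaffold Incenp at 57.9 and 41.1 CPM (0.49), Birc5 (survivin) at 146 and 103 CPM (0.50) and Cdca8 (borealin) at 82.8 and 61.3 CPM (0.43). Of the checkpoint genes, Bub1b, Mad2l1 and Ttk had log2 ratios of 0.49, 0.50 and 0.49, and the kinase Bub1 had 0.33. Kinetochore genes ranged from Ndc80, which grips the microtubule, at 49.8 and 43.3 CPM (0.20), to Cenpa, the histone variant that marks centromeres, at 111 and 72.4 CPM (0.61). Ndc80's partners in the same complex were at 0.43 (Nuf2), 0.39 (Spc24) and 0.35 (Spc25). Cenpf and Cenpe, proteins of the outer kinetochore, were at 0.25 and 0.38. The 3 midbody and cytokinesis genes were not called: Prc1 at 164 and 132 CPM (0.31), Anln at 147 and 128 CPM (0.20) and Ect2, which activates RhoA for the cleavage furrow, at 76.8 and 65.6 CPM (0.22).

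**Figure D1:**
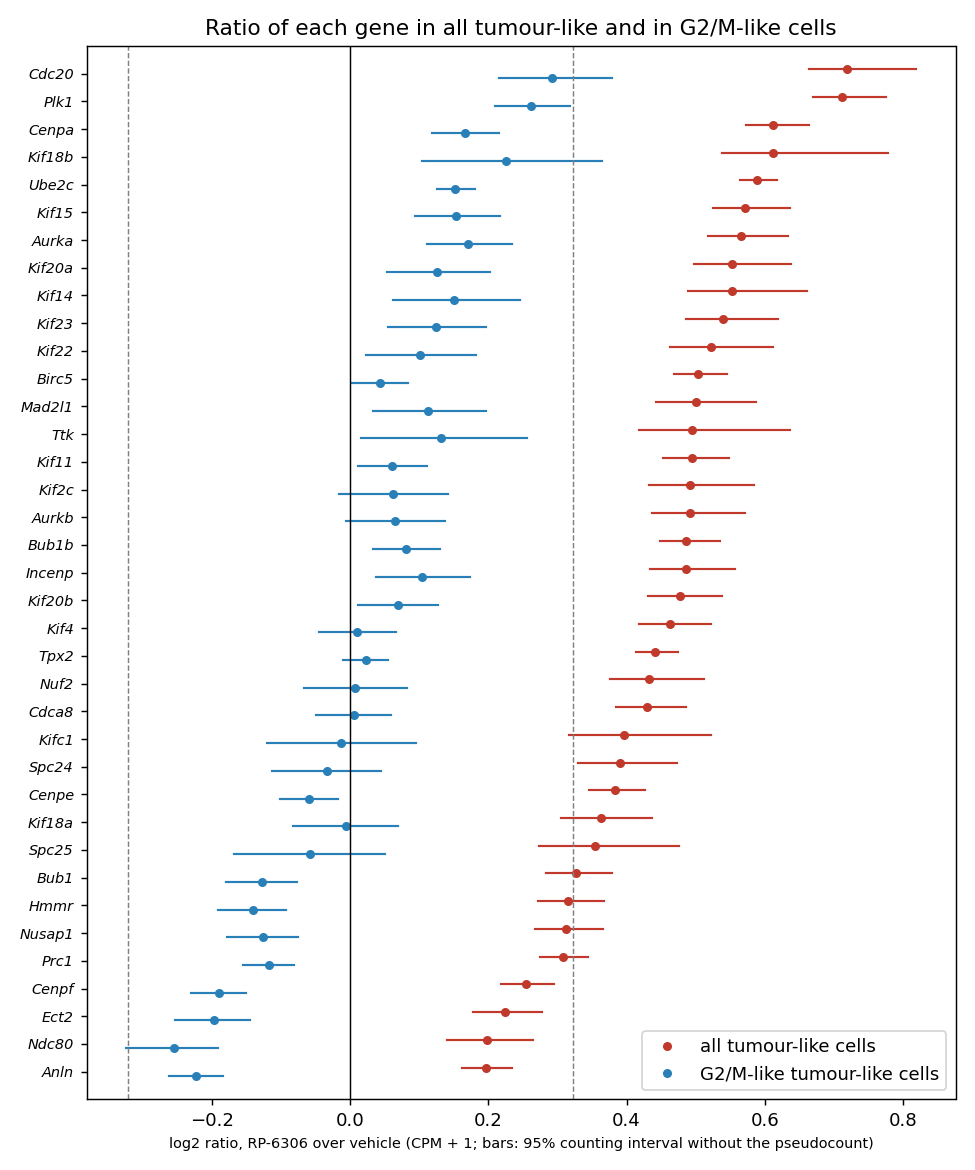
Log2 ratio, RP-6306 over vehicle, of each of the 37 genes (rows, highest at the top) in all tumour-like cells (red) and in G2/M-like tumour-like cells (blue), with 95% counting intervals as bars and log2 ratios of -0.32 and 0.32 as dashed lines. All 37 red points lie above 0 and 30 lie past 0.32, while the blue points lie on both sides of 0 and 0 of 37 lie past either line.

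Cell cycle states were called from other genes, and the 37 genes were then compared within each state. Each tumour-like cell with at least 5000 UMIs was thinned to 5000 and scored for 43 S phase and 32 G2/M genes, none of them among the 37. Cells with neither score above 0 were called G1-like, which takes in quiescent cells, and the others S-like or G2/M-like by the higher score. G2/M-like cells were 44.5% (42.7 to 46.3; 1366 of 3071) of RP-6306 and 31.6% (29.8 to 33.3; 898 of 2846) of vehicle tumour-like cells. S-like cells were 11.3% and 8.01%, and G1-like cells 44.2% and 60.4%. A G2/M score within 0.05 of the threshold was found in 7.16% of RP-6306 and 8.29% of vehicle cells.

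Within a state the summed levels of the libraries lay close together. The 37 genes summed to 5398 CPM (5378 to 5418) in RP-6306 and 5357 CPM (5331 to 5384) in vehicle G2/M-like cells. S-like cells had 1807 CPM in RP-6306 and 1776 CPM in vehicle, and G1-like cells 207 and 199.5 CPM. Setting the vehicle level of each state against the RP-6306 share of UMIs in each state gave 3028 CPM, a log2 ratio of 0.43 over vehicle, beside the observed 0.45. The shares of UMIs in G2/M-like cells were 51.2% in RP-6306 and 36.7% in vehicle. A median G2/M-like cell held 180 UMIs of the 37 genes in RP-6306 and 150 in vehicle, at median depths of 37189 and 31868 UMIs, and a G1-like cell held 4 in both.

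Every one of the 37 genes followed the state. The states were called from other G2/M genes, Cdk1, Top2a and Mki67 among them, which are switched on in the same phase. This outcome was therefore largely set by how states were called, and it and the state mix above are descriptions. In RP-6306 cells all 37 were more than 2-fold higher in G2/M-like than in G1-like cells, where 3.18% of 15535 genes were, and in vehicle cells all 37, where 3.29% were. The median log2 ratio, G2/M-like over G1-like, was 4.45 in RP-6306 and 4.34 in vehicle cells. In RP-6306 cells it ran from 2.39 for Kif18a to 6.02 for Kif11. Kif18a kept 13.3 CPM in RP-6306 and 11.5 CPM in vehicle G1-like cells, and Bub1b 22.5 and 18.1 CPM, while Plk1 had 1.62 and 1.69 CPM there. Kif18a thus had the smallest G2/M-like over G1-like ratio of the 37 in both libraries, followed in RP-6306 cells by Bub1b (2.998) and Mad2l1 (3.14).

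Within the G2/M-like state 0 of the 37 genes were called either way, where 6.24% of 15290 genes were higher and 8.8% lower. The log2 ratio, RP-6306 over vehicle, was above 0 for 24 genes and below 0 for 13. The median was 0.06 over the 37 and 0.02 over all genes. Cdc20 was at 72.5 CPM in RP-6306 and 59.0 CPM in vehicle G2/M-like cells (0.29, 0.22 to 0.38), and Plk1 at 163 and 136 CPM (0.26, 0.21 to 0.32). Kif18b (0.23), Aurka (0.17), Cenpa (0.17), Kif15 (0.15) and Ube2c (0.15) followed. Both mitotic exit genes, all 4 chromosomal passengers, 10 of 12 kinesins, 3 of 4 checkpoint genes and 3 of 5 spindle assembly genes were above 0. Some of these had intervals that held 0, among them Cdca8 (0.01, -0.05 to 0.06), Aurkb (0.06, -0.01 to 0.14) and Tpx2 (0.02, -0.01 to 0.05). On the other side, Ndc80 was at 86.1 CPM in RP-6306 and 103 CPM in vehicle G2/M-like cells (-0.25, -0.32 to -0.19), Anln at 252 and 294 CPM (-0.22), Ect2 at 132 and 151 CPM (-0.20) and Cenpf at 249 and 284 CPM (-0.19). All 3 midbody genes and 5 of 7 kinetochore genes were below 0, with Spc24 (-0.03) and Spc25 (-0.06) close to it. For Anln the size differed between settings. With each cell thinned to 2000 UMIs its log2 ratio was -0.03, while that of Ndc80 was -0.30. With states called at 2000 UMIs they were -0.13 for Anln and -0.15 for Ndc80. The cause of these shifts was not tested.

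The same genes were set side by side in cells matched more closely. In bins 8 and 9 of the cell cycle axis described next, where both libraries were at their highest, Plk1 was at 0.24, Cdc20 at 0.18, Ndc80 at -0.24, Anln at -0.20 and Cenpf at -0.20, and the sign matched that of all G2/M-like cells for 33 of 37 genes. It matched for 29 in G2/M-like cells of cluster 6, where 16 genes were above and 21 below 0, for 32 in those of cluster 7, and for 27 with cells thinned to 2000 UMIs. In G2/M-like cells of cluster 6 (704 RP-6306 and 488 vehicle cells) Ndc80 was at -0.25 and Anln at -0.23, but Plk1 was at 0.05 (-0.02 to 0.12) and Cdc20 at 0.11. In those of cluster 7 (510 and 170 cells) Ndc80 was at -0.25, Anln at -0.17, Plk1 at 0.45 and Cdc20 at 0.29. Ndc80 and Anln were thus lower in RP-6306 in both clusters, whereas the counting interval of Plk1 excluded 0 in cluster 7 and held it in cluster 6. Gene length moved with these ratios. Across the 37 genes Spearman's rho between length and the G2/M-like log2 ratio was -0.34, and across 15283 genes it was -0.14, as a description. The 19 genes of 30.7 kb or longer had a median of 0.01 and the 18 shorter ones of 0.10, against -0.01 and 0.05 over all longer and shorter genes. Anln spans 57.2 kb, Ect2 56.7 kb and Ndc80 30.8 kb, and Cdc20 4.45 kb and Plk1 10.4 kb, but Kif15, with a ratio above 0, spans 67.7 kb. The part of length in the ratios was not tested.

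Outside G2/M, Cenpa stood apart in the S-like state, with 58.1 CPM (740 UMIs) in RP-6306 and 32.2 CPM (238 UMIs) in vehicle cells, a log2 ratio of 0.83 (0.64 to 1.07). Plk1 (0.36) and Cdc20 (0.35) were the other 2 genes called higher there, and 0 were lower, where 12.8% of 12713 genes were higher and 11.9% lower. In G1-like cells 3 genes were called higher, where 6.35% of all genes were, and 2 lower, where 6.4% were. Cdc20 was at 4.48 CPM in RP-6306 and 2.73 CPM in vehicle G1-like cells (0.55, 0.37 to 1.06), so its level was above that of vehicle in all 3 states. It was not alone in this. In S-like, G2/M-like and G1-like cells Cenpa was at 0.83, 0.17 and 0.30, and Bub1b at 0.28, 0.08 and 0.30. Birc5 and Mad2l1 were among further genes above 0 in all 3.

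The tumour-like cells of the libraries were spread differently over the 5 clusters. Cluster 5 held 21.1% of RP-6306 and 46.1% of vehicle tumour-like cells, cluster 6 held 37.9% and 25.6%, cluster 7 held 25.3% and 9.24%, cluster 8 (led by Serpinb2, Cryab and Areg) held 13.6% and 16.4%, and cluster 25 (led by Cxcl10 and Gbp2) held 2.08% and 2.71%. Clusters 6 and 7 were rich in G2/M-like cells, with 60.5% (57.7 to 63.4) in RP-6306 and 67.0% (63.5 to 70.4) in vehicle cells of cluster 6, and 65.6% and 64.6% in cluster 7. Cluster 5 had few, with 7.70% (5.77 to 10.0) in RP-6306 and 11.2% (9.56 to 13.05) in vehicle cells. Within clusters 5 and 6 the G2/M-like share was therefore lower in the RP-6306 library, the reverse of the share over all tumour-like cells. With the RP-6306 shares of clusters and the vehicle shares of G2/M-like cells within them, 46.8% of cells would be G2/M-like, beside 44.5% observed in RP-6306 and 31.6% in vehicle.

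The level of the 37 genes behaved alike. It was 591 CPM in RP-6306 and 870 CPM in vehicle cells of cluster 5, 3800 and 4302 CPM in cluster 6, 4340 and 4029 CPM in cluster 7, 839 and 827 CPM in cluster 8 and 3475 and 2721 CPM in cluster 25. The higher overall level in RP-6306 thus went with more cells in clusters 6 and 7 and fewer in cluster 5, and in clusters 5 and 6 themselves the level was lower. Clustering left out the 37 genes, the state genes and histone genes, yet Rrm2 and Hist1h1b are among the 10 leading genes of clusters 6 and 7, and Ube2c and Tpx2 among those of cluster 7, so cluster and cell cycle are not independent.

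**Figure D2:**
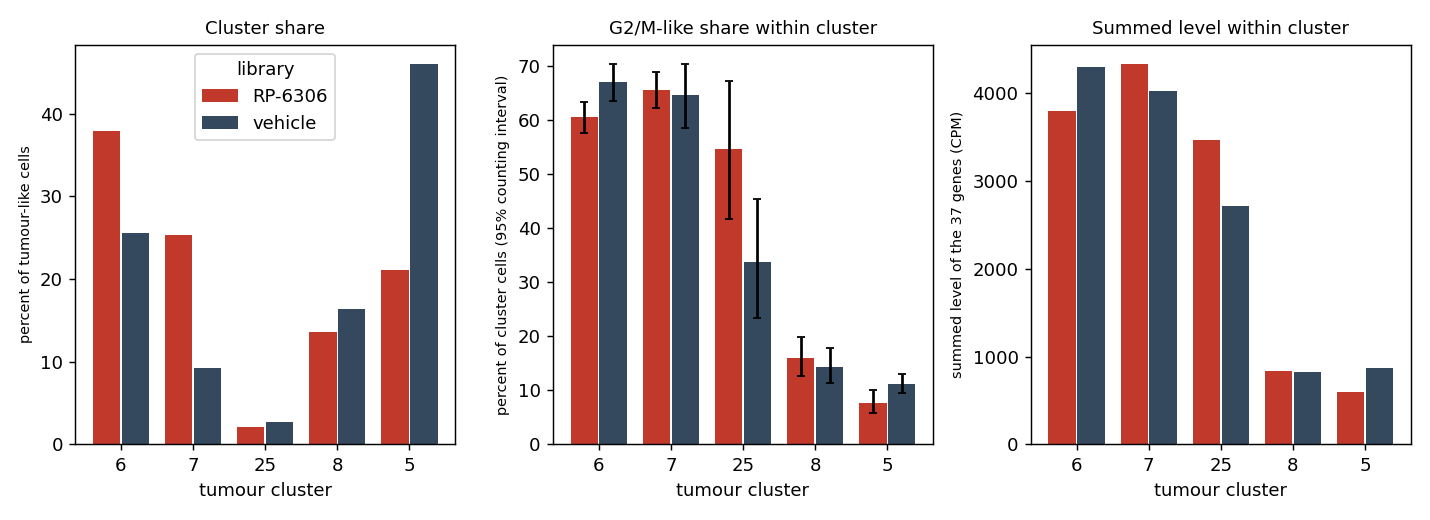
Tumour-like cells by cluster (RP-6306 red, vehicle dark). The panels give each cluster's percent of the library's tumour-like cells, its percent of G2/M-like cells with 95% counting intervals, and the summed level of the 37 genes in CPM; cluster 5 holds 21.1% of RP-6306 and 46.1% of vehicle cells and has the lowest G2/M-like share in both.

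To follow the order of rise, the 5917 tumour-like cells were placed on a circle by the angle of their S phase and G2/M scores and cut into 12 bins of equal size, with at least 182 cells of each library in each. Bins 1 to 3 were almost wholly G1-like, bins 4 and 5 held nearly all S-like cells, bins 6 to 9 were almost wholly G2/M-like, bin 10 was G2/M-like for 28.9% of RP-6306 and 20.1% of vehicle cells, and bins 11 and 12 were again G1-like. The rise midpoint of a gene is the bin position at which it passed the middle between its lowest and highest bin. The summed level of the 37 genes was 571 CPM in RP-6306 and 471 CPM in vehicle cells of bin 4, 2311 and 2570 CPM in bin 5, and reached 7121 and 7055 CPM in bin 8. By bin 10 it was 645 and 393 CPM.

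Over both libraries together all 37 genes were highest in bin 8, except Cenpa, which was highest in bin 9. In the vehicle library alone Kif15 was highest in bin 6, Mad2l1, Spc24 and Nuf2 in bin 7, and Kif14 and Kif20a in bin 9. The genes differed more in their rise midpoints than in their peaks. The first to rise were the checkpoint gene Mad2l1 (rise midpoint 4.57), Kif15 (4.58), Spc24 (4.62), the checkpoint kinase Ttk (4.73), Nuf2 (4.79) and Incenp (4.90). Over both libraries Mad2l1 was at 18.7 CPM in bin 4, 51.6 in bin 5, 67.8 in bin 6 and 71.1 in bin 8, so it was near its highest level in bin 6, where the mean S phase score was still above 0. The last to rise were Ube2c (6.40), Cenpf (6.35), Aurka (6.29), Cenpe (6.26) and Plk1 (6.25). Ube2c was at 36.1 CPM in bin 4, 125 in bin 5, 296 in bin 6, 640 in bin 7 and 856 in bin 8.

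By role the median midpoints ran from the checkpoint genes (4.88) and the chromosomal passengers (5.03) over the kinetochore genes (5.18) to the midbody genes (5.42). The kinesins (5.71), spindle assembly (6.17) and mitotic exit (6.23) followed. Roles hold few genes, and several ranges overlapped. Checkpoint genes ran from 4.57 to 5.41, kinetochore genes from 4.62 to 6.35 and kinesins from 4.58 to 6.01. The kinetochore genes split: Spc24, Nuf2, Ndc80 (4.96) and Spc25 (5.18), the 4 subunits of the NDC80 complex, were all among the first 12, and Cenpa (6.15), Cenpe and Cenpf among the last 12. Over both libraries kinesins ran from Kif15 and Kif4 (4.95) to Kif20b and Kif18a, both at 6.01, with Kif11 at 5.47 between. In the vehicle library alone Kif20a (5.94) was the last kinesin, with Kif20b at 5.52 and Kif18a at 5.28. Among the midbody genes Ect2 (5.32) and Anln (5.42) came before Prc1 (6.18).

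The order was similar in the RP-6306 and the vehicle library. Spearman's rho of the rise midpoints over the 37 genes was 0.94, and of the centre of each gene's profile 0.97. Both libraries share the axis and its bins, and genes are not replicates, so these are descriptions. The centre lay later in RP-6306 for 33 of 37 genes, by a median of 0.08 bins. Midpoints of neighbours in the order, such as Mad2l1 and Kif15 or Cenpf and Ube2c, changed places between libraries or settings. The median difference in midpoint, RP-6306 minus vehicle, was 0.11 bins, but some genes moved further. Kif18a was at 6.19 in RP-6306 and 5.28 in vehicle, Kif14 at 5.88 and 5.26, and Kif20b at 6.12 and 5.52. The summed level in bin 6 was 3862 CPM in RP-6306 and 4124 CPM in vehicle, beside the later centres in RP-6306. The ratio between libraries did not follow the order: within the G2/M-like state the first 12 genes had a median log2 ratio of 0.03, the middle 13 of 0.06 and the last 12 of 0.03.

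Another axis, running from early to late G2/M genes within the 2264 G2/M-like cells alone, gave another view of the later stages. Spearman's rho between its order and the one above was 0.56, and between the libraries on it 0.95. Aurkb, Spc25, Incenp, Kif15, Kif18b and Nuf2 were earliest, and Cenpf, Cenpe, Hmmr, Kif20a, Cdc20 and Cenpa latest. Incenp, Kif15 and Nuf2 were among the first 6, and Cenpe and Cenpf among the last 6, on both axes, whereas Ube2c, last on the circle, was not among the last 6 here.

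Genes with and without the promoter elements lay on both sides of the order. The 20 genes with TTTGAA and CCAAT had a median midpoint of 5.71, ranging from 4.73 (Ttk) to 6.40 (Ube2c). The 5 genes with neither in the bases searched, Kif18a, Birc5, Mad2l1, Nuf2 and Nusap1, had a median of 5.07. They ranged from 4.57 to 6.17. The ranges overlap over most of their length.

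**Figure D3:**
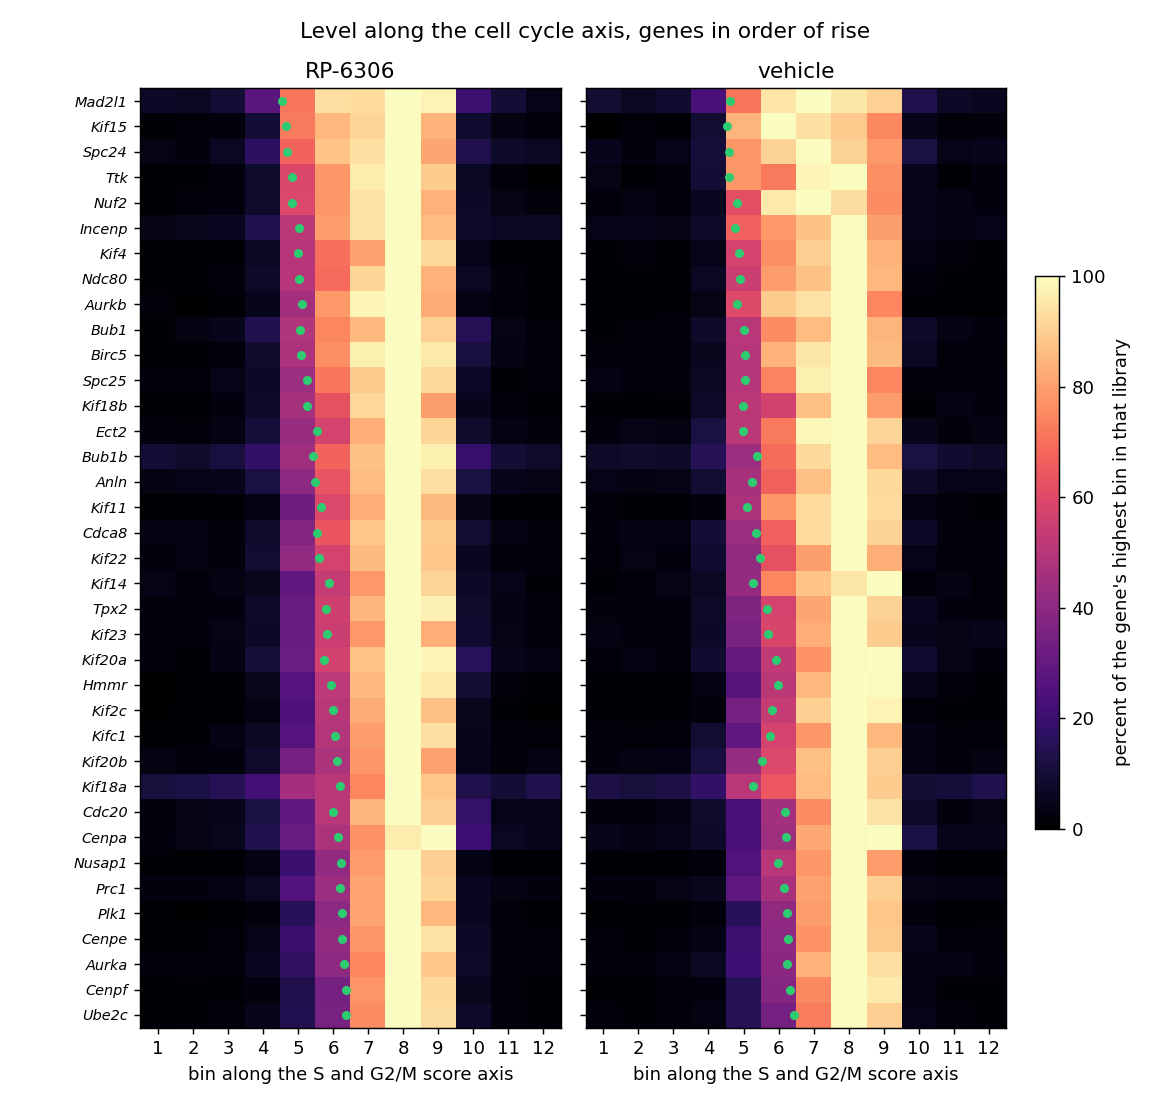
Level of each gene (rows, in order of rise) in 12 bins along the S phase and G2/M score axis, as percent of its highest bin, in the RP-6306 (left) and the vehicle library (right), with the rise midpoint as a green dot. Midpoints run from bin 4.57 for Mad2l1 to bin 6.40 for Ube2c over both libraries, and in both panels the genes at the top rise in earlier bins than those at the bottom.

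Part of the other mitotic genes were called higher too. Of 34 other kinetochore and checkpoint genes 20 were called higher in RP-6306 tumour-like cells and 0 lower (median log2 ratio 0.35), beside the 7.09% and 7.19% of all genes. Knl1, the platform for BUB1 and BUBR1, was at 137 CPM in RP-6306 and 96.3 CPM in vehicle cells (0.50), and Oip5 and Sgo1 were at 0.53 and 0.49. Oip5 helps to load CENP-A, and Sgo1 shields centromeric cohesin. Oip5 overlaps Nusap1 on the opposite strand, so reads of this pair cannot be told apart either. Of 32 other spindle, midbody and condensin genes 16 were called higher and 0 lower (0.32), with Troap at 0.59, Cep55, a midbody protein, at 0.50, and the augmin subunits Haus4 and Haus1 at 0.49 and 0.47. The other 16 were not called, and 5 of the 32 were below 0: Pttg1 (securin) at 38.6 CPM in RP-6306 and 45.1 CPM in vehicle cells (-0.22, -0.29 to -0.16), Ndel1, Cntrob, Haus8 and Kifc2. These 5 are named after their values were seen. Within G2/M-like cells these lists had medians of 0.05 and -0.01.

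Of 18 transport kinesins and light chains 0 were called higher and 2 lower, where 7.09% and 7.19% of all genes were, so 2 of 18 is near the share over all genes. The 2 were Kif13a at 30.2 CPM in RP-6306 and 46.6 CPM in vehicle cells (-0.61) and Klc4 at 5.22 and 6.93 CPM (-0.35). Kif21a and Kif3c were at -0.26 and -0.25. The median of the 18 was -0.11, with 14 below 0 and 4 above. Within G2/M-like cells their median was -0.08, with 3 called lower, where 8.8% of all genes were, and 0 higher, where 6.24% were. In both libraries 0 of 18 were 2-fold higher in G2/M-like than in G1-like cells. APC/C subunits and regulators had a median of 0.14, with 2 of 18 called higher, also near the 7.09% of all genes. The 2 were the inhibitor Fbxo5 at 40.7 and 27.1 CPM (0.57) and Anapc15 at 17.4 and 12.6 CPM (0.44). Of these 18, 3 in RP-6306 and 4 in vehicle cells were more than 2-fold higher in G2/M-like than in G1-like cells. Over all genes 3.18% and 3.29% were. Cdc23, which overlaps Kif20a, and Cdc26 were at 0.30 and 0.29. Ccnb1, the mitotic cyclin, was at 46.0 and 27.8 CPM (0.71) and Cdk1 at 93.2 and 64.9 CPM (0.52). The proliferation genes Mki67 and Top2a were at 0.35 and 0.17, and Pkmyt1, which encodes the drug's target, at 13.8 and 12.7 CPM (0.12).

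Across the named cell classes the summed level of the 37 genes was highest in tumour-like cells. Collagen-high cluster 18, led by Col1a1, Col1a2 and Col3a1, had tumour markers at 2479 CPM in RP-6306 and 2415 CPM in vehicle cells, close to the tumour-like level, and was kept apart. Its 37 genes summed to 1460 CPM (172 cells) in RP-6306 and 525 CPM (218 cells) in vehicle, a log2 ratio of 1.47 (1.41 to 1.54). All 37 were called higher, where 17.5% of 11848 genes were. A single cell held 8.94% of the genes' RP-6306 UMIs and another 10.3% of their vehicle UMIs. Ube2c was at 146 and 31.02 CPM (2.20) and Plk1 at 36.4 and 7.91 CPM (2.07). Cells with UMIs of at least 3 of the genes, after thinning to 2000 UMIs, were 15.1% (10.1 to 21.4) in RP-6306 and 5.96% (3.21 to 9.98) in vehicle. Without thinning such cells were 54.7% in RP-6306 and 52.8% in vehicle, and they held 97.8% and 94.5% of the genes' UMIs.

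**Figure D4:**
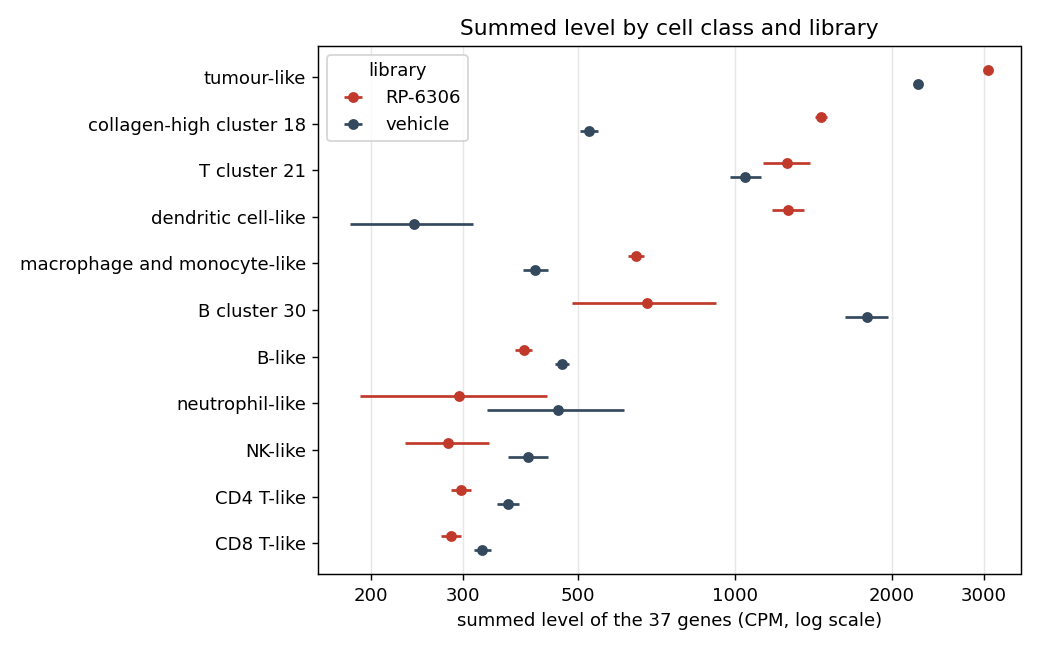
Summed level of the 37 genes (CPM, log scale) by cell class in the RP-6306 (red) and the vehicle library (dark), with 95% counting intervals. Tumour-like cells stand highest at 3053 and 2242 CPM, and CD8 T-like cells are at 285 and 327 CPM.

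Leukocyte droplets can hold free RNA of tumour cells, so their levels were read beside the tumour markers. In B-like cells (3455 RP-6306, 3472 vehicle) the tumour markers were at 141 CPM in RP-6306 and 269 CPM in vehicle, 5.50% and 10.3% of their tumour-like levels. The median over the 37 genes was above these shares, at 8.84% in RP-6306 and 16.8% in vehicle B-like cells. Their sum stood at 12.9% and 20.7% of its tumour-like level. Plk1, at 5.05 and 6.79 CPM, lay at 5.81% and 12.9% of its tumour-like level, and Cdc20, at 2.95 and 3.27 CPM, at 7.18% and 13.3%, both close to the tumour marker share. In both libraries 11 of 37 genes lay above 2 times that share, among them Cenpa, Kif18a, Kif20b and Ndc80.

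Of these named genes Cenpa had the most UMIs in B-like cells, while Kif18a lay nearer its tumour-like level. Cenpa was at 82.7 CPM (76.1 to 89.6, 589 UMIs) in RP-6306 and 70.3 CPM (64.6 to 76.4, 559 UMIs) in vehicle B-like cells. These were 74.4% and 97.1% of its tumour-like level. After thinning to 2000 UMIs, 13.7% and 12.6% of B-like cells held a Cenpa UMI, against 0.965% and 1.04% that held Plk1, and no other gene overlaps Cenpa in the annotation. Of these UMIs 3.57% in RP-6306 and 10.0% in vehicle lay in B-like cells with at least 3 of the other 36 genes. Ndc80 with 4.04% and 9.65% and Kif20b with 3.74% and 12.95% had similar shares, so this does not set Cenpa apart from them. The shares were larger for Plk1, 8.33% of 36 UMIs in RP-6306 and 16.7% of 54 in vehicle. For Cdc20 they were 9.52% of 21 and 19.2% of 26 UMIs. Ube2c had 8.51% and 10.9%. Kif18a, which overlaps Mettl15, was at 39.4 and 36.1 CPM, 82.3% and 97.4% of its tumour-like level, Kif20b at 35.1% and 45.4%, and Ndc80 at 27.9% and 33.1%. Cenpa and Ndc80 also lay above 2 times the marker share in CD4 T-like cells, where Cenpa was at 60.9 CPM in RP-6306 and 39.9 CPM in vehicle and Ndc80 at 25.9 and 24.7 CPM, and in CD8 T-like cells, with 51.3 and 36.6 CPM of Cenpa and 22.8 and 18.6 CPM of Ndc80. Cenpa UMIs outnumbered Plk1 UMIs 589 to 36 in RP-6306 B-like cells, against 11763 to 9202 in RP-6306 tumour-like cells.

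**Figure D5:**
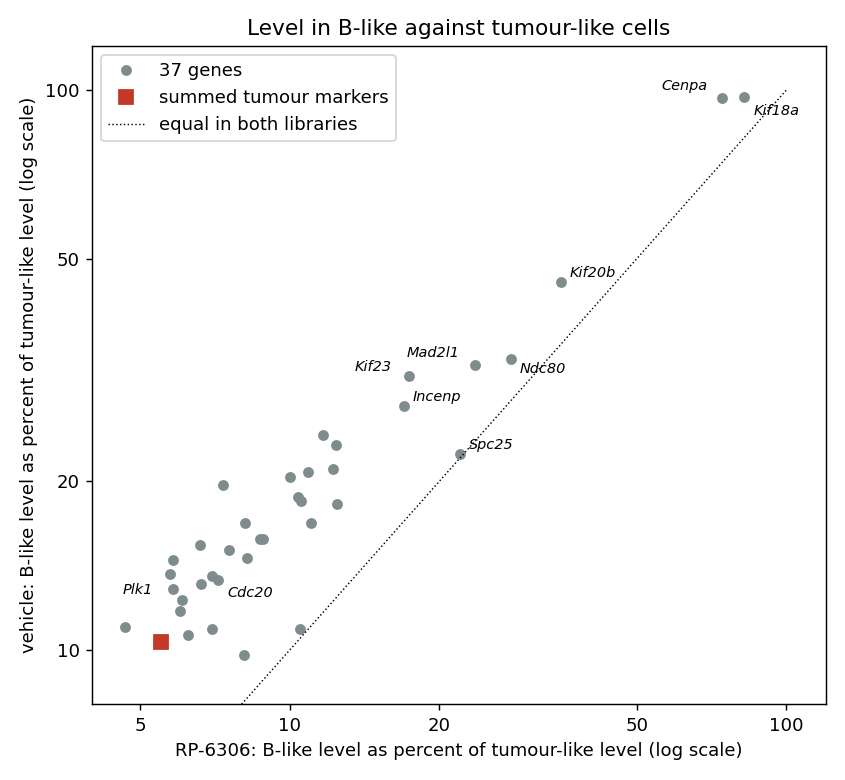
Level of each of the 37 genes (grey) and of the summed tumour markers (red square) in B-like cells as percent of the tumour-like level of the same library, RP-6306 on the horizontal and vehicle on the vertical axis, both log scales. The tumour markers lie at 5.50% and 10.3%, the median over the 37 genes is 8.84% and 16.8%, and Cenpa and Kif18a lie at the upper right.

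In B-like, CD8 T-like, CD4 T-like and NK-like cells the summed level was lower in the RP-6306 library. It was 393 CPM in RP-6306 and 465 CPM in vehicle B-like cells (log2 ratio -0.24, -0.31 to -0.17), with 19 of 37 genes called lower, where 16.5% of 11862 genes were, and 0 higher, where 9.95% were. CD8 T-like cells had 285 and 327 CPM (-0.20), with 19 of 35 genes lower (14.3% of 11752 genes) and 2 higher (11.3%). CD4 T-like cells had 298 and 367 CPM (-0.30), with 21 of 36 lower (15.7% of 11104 genes) and 3 higher (14.4%). NK-like cells, 145 and 407, had 281 and 401 CPM (-0.51), with 8 of 12 measured genes lower (18.2% of 7440 genes) and 1 higher (23.9%). The tumour markers were lower as well: 100 CPM in RP-6306 and 189 CPM in vehicle CD8 T-like cells, 117 and 219 CPM in CD4 T-like cells and 79.4 and 190 CPM in NK-like cells. Their part in the lower levels was not tested. In B-like, CD8 T-like and CD4 T-like cells Cenpa ran the other way, at 0.23 (0.07 to 0.40), 0.48 (0.27 to 0.71) and 0.60 (0.35 to 0.87). Anln was at -0.97, -0.96 and -1.17 in those classes. Cenpa was not alone there: 8 of 37 genes in B-like, 10 of 35 in CD8 T-like and 10 of 36 in CD4 T-like cells were above 0. Among them were Kif22 in CD8 T-like cells (0.61, 0.02 to 1.52) and Kif23 in CD4 T-like cells (0.70, 0.21 to 1.34). In NK-like cells Cenpa was at -0.33 (-1.11 to 0.37).

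Leukocytes with several of the genes were few. Cells with at least 3 of the genes at 2000 UMIs were 3.47% (2.62 to 4.51) in RP-6306 and 5.66% (4.72 to 6.73) in vehicle B-like cells, 2.24% and 3.32% in CD8 T-like and 2.08% and 3.75% in CD4 T-like cells. T cluster 21, led by Tnfsf8, Gzmk and Klrc1, had 1256 CPM (78 cells) in RP-6306 and 1046 CPM (202 cells) in vehicle. Its tumour markers were at 81.0 and 180 CPM, near those of other T cells. A single cell held 42.7% of the RP-6306 UMIs of the 37 genes, and without the highest cell of each library the median log2 ratio was -0.14 in place of 0.26. B cluster 30, led by Jchain, Sox5 and Mybl1, had 678 CPM in 12 RP-6306 cells and 1791 CPM in 43 vehicle cells, with tumour markers at 82.6 and 77.2 CPM. Of its vehicle cells with 2000 UMIs, 32.5% (18.6 to 49.1) held at least 3 of the genes.

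Macrophage and monocyte-like cells had a higher level in RP-6306, 646 CPM (490 cells) and 414 CPM (489 cells) in vehicle, a log2 ratio of 0.64 (0.55 to 0.74). Of 36 measured genes 25 were called higher, where 26.8% of 10487 genes were, and 3 lower, where 13.5% were. Kif4 was at 26.6 CPM in RP-6306 and 6.27 CPM in vehicle (1.93), Incenp at 36.1 and 16.3 CPM and Kif15 at 33.5 and 13.8 CPM, while Cenpa was at 35.7 and 45.1 CPM (-0.33). Tumour markers were at 75.3 and 98.7 CPM and thus lower in RP-6306. Cells with at least 3 of the genes were 7.54% (5.31 to 10.3; 35 cells) and 2.39% (1.197 to 4.23; 11 cells). Cluster 9, led by Lyz2, Chil3 and Thbs1, had 424 CPM in RP-6306 and 252 CPM in vehicle, whereas cluster 23, led by Mrc1, Ccl12 and C1qb, had 1179 and 1195 CPM with 99 and 59 cells. Dendritic cell-like cells had 1264 CPM (57 cells) in RP-6306 and 242 CPM (41 cells) in vehicle, with 17.7% of the RP-6306 UMIs in 1 cell, and were too few to compare.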

How the data were processed

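The deposited matrices hold raw counts, whole UMIs per gene and barcode (SeekOne DD 3' libraries, per the labels). Cell Ranger 2.1.1 and build mm10 appear in the submitters' processing notes, without their roles. Barcodes under 500 UMIs or 300 genes, or over 15% mitochondrial UMIs, were dropped. Scrublet's automatic threshold called 0 doublets in both libraries and so did not work here. The highest 6% of its scores per library were dropped instead, and doublets may remain. This left 14943 RP-6306 and 16153 vehicle cells. Clustering used 2000 variable genes without the 37 genes, state genes and other cell cycle families, 30 components, 15 neighbours and Leiden resolution 1 (scanpy 1.11.5, leidenalg 0.10.2, Python 3.11.15). Clusters with mixed lineages or low UMIs stayed unnamed. Levels are sums over the cells of a class in 1 library, in CPM. Log2 ratios used CPM + 1 and genes with at least 20 UMIs, and classes needed 50 cells in each library. Intervals are exact Poisson, Clopper-Pearson and conditional binomial (95%, without the pseudocount). States used each cell thinned to 5000 UMIs, and shares of cells with a gene each cell thinned to 2000 UMIs. The ratio and order steps were tested on simulated data. Scores are scanpy's score_genes with 50 control genes. Named genes outside the 37 are, per list, the 4 with the largest absolute log2 ratio among those with at least 100 UMIs, besides Pkmyt1, Cdk1, Ccnb1, Mki67 and Top2a. Not every gene this rule names is reported here. The genes, lists and markers were chosen with earlier results of these data known. Promoter sequences come from RefSeq on GRCm38.p6, and gene bounds from GENCODE on GRCm38, where 32235 of 32285 IDs were found. Proteins were not analysed here.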

Additional observations from a re-analysis of the deposited data

Results flagged for a closer look

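The summed level of the 37 genes was higher in RP-6306 tumour-like cells and lower in RP-6306 cells of 4 lymphocyte classes. The log2 ratio, RP-6306 over vehicle, was 0.45 in tumour-like cells, against -0.51 in NK-like, -0.20 in CD8 T-like, -0.30 in CD4 T-like and -0.24 in B-like cells, each with a counting interval clear of 0. T cluster 21 was at 0.26 (0.08 to 0.44), the same direction as tumour-like cells, with 42.7% of its RP-6306 UMIs of the genes in 1 cell. The difference between classes was not tested, since each group has 1 library. Tumour markers in the same lymphocyte droplets were lower in RP-6306 too (141 CPM in RP-6306 and 269 CPM in vehicle B-like cells), and their part in this was not tested.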

How the results depend on the processing

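No paired analysis was possible because each group has 1 library, and for the same reason leaving out a replicate was not possible. The alternatives that left out clusters, shared barcodes or single cells, or added clusters 4 or 18, were chosen after seeing the data. The summed level in tumour-like cells was 3036 CPM in RP-6306 without doublet removal, and as a mean over cells 2637 CPM in RP-6306 and 1922 CPM in vehicle, while B-like cells had 411 CPM in RP-6306 as a mean over cells. The tumour-like log2 ratio was above 0 under all 15 alternatives: 0.43 with size factors, 0.46 thinned to 2000 UMIs, 0.46 as a mean over cells, 0.48 with cluster 18, 0.46 without shared barcodes, and 0.14, 0.88, 0.33 and 0.43 without cluster 5, 6, 7 or 8. The count of genes called higher was 3 without cluster 5 and 5 at 1.5-fold, and otherwise between 21 and 37. The median log2 ratio in macrophage and monocyte-like cells was 0.39 with 10 CPM added, 0.41 thinned and 0.40 as a mean over cells. The NK-like median was -0.17 when every cell had equal weight. With 10 CPM added it was -0.12 in CD8 T-like, -0.19 in CD4 T-like and -0.13 in B-like cells. CD4 T-like cells had -0.46 thinned and -0.49 as a mean over cells, and B-like cells -0.40 for genes with at least 100 UMIs and -0.24 as a mean over cells. None of the 37 genes had that many UMIs in NK-like cells. T cluster 21 changed direction, to -0.14 without the highest cells and -0.018 as a mean over cells, and had 0.063 for genes with at least 100 UMIs. The vehicle G2/M-like share was 34.3% with states called at 2000 UMIs. The median within G2/M-like cells was 0.048 with size factors, 0.094 thinned and 0.13 with states at 2000 UMIs. The rho between libraries of the order of rise stayed between 0.94 and 0.96, and TTTGAA lay in 75.0% of promoters within 150 bases before the start. The cause of these shifts was not tested. Intervals cover counting error only, and below about 20 UMIs per gene no ratio is given.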

Other observations

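Some cells stood outside the named classes. Unnamed cluster 4, with low UMIs and tumour markers (Krt8 at 430 CPM over both libraries), held 249 RP-6306 and 1732 vehicle cells, 1.67% and 10.7% of all cells. Its 37 genes summed to 2794 CPM in RP-6306 and 1641 CPM in vehicle, a difference in the same direction as in tumour-like cells. Unnamed cluster 26, led by Ano4 and histone genes with Birc5, Ube2c, Anln and Tpx2, held 86 RP-6306 and 7 vehicle cells, with 3973 and 2336 CPM. Unnamed cluster 31, led by Cenpf, Ube2c, Aspm, Cenpe and Hmmr, held 0 RP-6306 and 10 vehicle cells, which had 8895 CPM of the 37 genes, above bin 8 of the tumour cell cycle axis (7121 CPM in RP-6306 and 7055 CPM in vehicle).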
